A study of Mus musculus with 12 samples.

Results

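Mitochondrial ribosomal protein genes were followed in the livers of 4-month-old female mice that carried the Nts+/+ or Nts-/- label and had either free access to food or none for 22 h. The genes were taken by name: a symbol had to begin with Mrpl or Mrps followed by a digit, pseudogene symbols ending in -ps were left out, and at least 10 counts over all mice were required. Of 82 symbols with such a beginning, 5 were pseudogenes and 0 had too few counts, which left 77 genes of the 48795 in the table. The rule uses names and summed counts and no difference between groups, but it was set with earlier results of these data known. Each of the 4 groups held 3 mice, which were 254, 257 and 323 (fed Nts+/+), 265, 282 and 322 (fasted Nts+/+), 277, 303 and 319 (fed Nts-/-) and 284, 290 and 295 (fasted Nts-/-). The mice are described as age- and sex-matched littermates on normal chow, bred from heterozygous parents. Which of them shared a litter is not given in the sources used here. The knockout is a whole-body one, so neurotensin, a gut peptide, is meant to be missing from every tissue and not from the liver alone.

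The mitochondrial ribosome translates the few messenger RNAs that are made from mitochondrial DNA, all of which encode subunits of the oxidative phosphorylation (OXPHOS) complexes. Its ribosomal RNAs come from mitochondrial DNA, but all of its proteins are encoded in the nucleus, made in the cytosol and imported. Some of them have counterparts in bacterial ribosomes, and others were added during the evolution of mitochondria and cover the outside of the particle. Mrpl symbols mark proteins first assigned to the large subunit, which forms the peptide bond, and Mrps symbols those of the small subunit, which reads the message. In liver, mitochondria carry out fatty acid oxidation and supply energy for glucose synthesis during fasting.

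Of the 77 genes, 48 carry an Mrpl and 29 an Mrps symbol, and they lie on 17 chromosomes. By present assignment 50 encode proteins of the large subunit, because Mrps18a and Mrps30 belong there despite their names, and 26 encode proteins of the small subunit. Mrps36 encodes a subunit of the 2-oxoglutarate dehydrogenase complex and not of the ribosome, and it was kept because the choice went by symbol. In the large subunit 29 have a bacterial counterpart, 20 do not, and Mrpl55 was not assigned. In the small subunit these numbers were 16 and 10. One further large-subunit protein, the peptidyl-tRNA hydrolase Mrpl58, stands in the table as Ict1 and was therefore outside the 77.

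Promoters are shown for genes that the fasting results below turn on: Mrpl17, Mrps26, Mrps18b and Mrpl43, which were higher in fasted livers, and Mrps27, which was lower. Each sequence is the 250 bases before the RefSeq start of the gene on the GRCm38.p6 build, written 5′ to 3′ on the strand of the gene. Capitals mark a match on either strand to GCGCATGC, the core of the site bound by nuclear respiratory factor 1 (NRF1), or to CCGGAAG, the core bound by ETS factors such as GA-binding protein. The capitals in Mrpl17 are an ETS core followed, 11 bases before the start, by an NRF1 core, those in Mrps18b are an NRF1 core, and those in Mrps26, Mrpl43 and Mrps27 are ETS cores. Matches in the windows shown do not overlap each other. Of the 8 genes with an NRF1 core, Mrpl22 and Mrpl39 fell on average in fasting. Mrpl39, with 2 overlapping NRF1 cores, is not shown because its window lies inside the gene as the table places it. By the same placement the ends of the Mrpl17 and Mrps26 windows also lie inside the gene. These ends hold the NRF1 core of Mrpl17 and the ETS core of Mrps26.
Mrpl17 (chr7:105811088-105811337, minus strand): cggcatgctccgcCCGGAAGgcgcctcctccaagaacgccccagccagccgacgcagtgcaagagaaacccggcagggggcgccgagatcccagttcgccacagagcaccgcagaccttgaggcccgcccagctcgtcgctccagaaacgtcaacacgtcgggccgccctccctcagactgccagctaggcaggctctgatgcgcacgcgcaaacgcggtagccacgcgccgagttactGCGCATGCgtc
Mrps26 (chr2:130563507-130563756, plus strand): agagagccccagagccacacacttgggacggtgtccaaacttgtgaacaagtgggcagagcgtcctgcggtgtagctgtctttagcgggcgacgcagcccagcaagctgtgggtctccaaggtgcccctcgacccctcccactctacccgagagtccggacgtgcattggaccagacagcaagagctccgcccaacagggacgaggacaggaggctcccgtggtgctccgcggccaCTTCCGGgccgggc
Mrps18b (chr17:35916441-35916690, minus strand): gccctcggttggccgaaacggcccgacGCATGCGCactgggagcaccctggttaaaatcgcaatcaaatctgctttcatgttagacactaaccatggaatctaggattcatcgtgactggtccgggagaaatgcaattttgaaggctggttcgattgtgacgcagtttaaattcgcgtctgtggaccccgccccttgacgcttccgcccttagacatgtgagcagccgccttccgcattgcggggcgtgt
Mrpl43 (chr19:45006443-45006692, minus strand): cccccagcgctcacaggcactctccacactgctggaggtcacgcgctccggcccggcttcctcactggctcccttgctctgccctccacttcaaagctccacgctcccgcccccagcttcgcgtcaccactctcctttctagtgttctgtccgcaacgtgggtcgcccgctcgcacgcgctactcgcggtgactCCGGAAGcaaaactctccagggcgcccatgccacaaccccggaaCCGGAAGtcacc
Mrps27 (chr13:99344536-99344785, plus strand): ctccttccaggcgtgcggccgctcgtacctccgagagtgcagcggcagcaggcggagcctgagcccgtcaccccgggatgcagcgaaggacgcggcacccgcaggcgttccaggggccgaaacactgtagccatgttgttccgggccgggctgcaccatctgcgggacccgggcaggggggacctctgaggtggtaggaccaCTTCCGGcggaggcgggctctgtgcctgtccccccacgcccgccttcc

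Promoter windows of 300 bases (250 before the start and 50 after it) could be matched for 68 of the 77 genes, and for 27025 genes in all. The ETS core was found in 25 of the 68 windows (36.8%), against 9.93% of all windows and 19.6% of those of the 10023 tested genes with a window. The NRF1 core was found in 8 windows (11.8%), against 3.05% of all and 5.77% of those of tested genes. AAGATGGCG, the core bound by YY1, was also found in 8 (11.8%), against 1.64% and 3.49%. TGACGTCA, the cyclic AMP response element, was found in 2 (2.94%, against 2.03% and 3.42%), and TATAAA in 5 (7.35%, against 15.7% and 9.28%). The estrogen-related receptor core TNAAGGTCA was found in 0, against 1.43% and 0.958%. A start of another gene on the opposite strand within 1000 bases was found for 27 of the 68 (39.7%), against 20.03% of tested genes. Mrpl46 and Mrps11 share such a stretch of 42 bases, and Mrps12 and the mitochondrial seryl-tRNA synthetase gene Sars2 one of 147 bases. These are descriptions of letters in a window and not of bound factors.

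All 77 genes had enough counts to be tested, with 138 to 6067 counts per gene and mouse. Values are given as CPM, counts divided by the library total after TMM scaling, and the mean over the 12 mice ran from 8.28 CPM for Mrps6 to 122 CPM for Mrpl12, with a median of 25.5 CPM against 11.4 CPM for all tested genes. Their transcripts are short, with a median of 1673 bases against 2861. Per kilobase of transcript the levels spanned 13.5-fold, from 3.98 CPM per kilobase for Mrpl19 to 53.8 for Mrpl15. Mrpl15, a protein laid down early in large subunit assembly, was followed by Mrpl12 (50.3), the stalk protein that recruits translation factors, and Mrps21 (49.7). The lowest were Mrpl19, Mrps26 (4.42) and Mrpl47 (4.47). Neighbours in this order did not separate, since the ranges over mice of adjacent genes overlapped throughout the order. The order also depended on the transcript length used, which was the median over annotated coding transcripts. With the longest transcript, the level was 16.6 CPM per kilobase for Mrpl15, 43.5 for Mrpl12 and 11.1 for Mrps21.

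**Figure D1:**
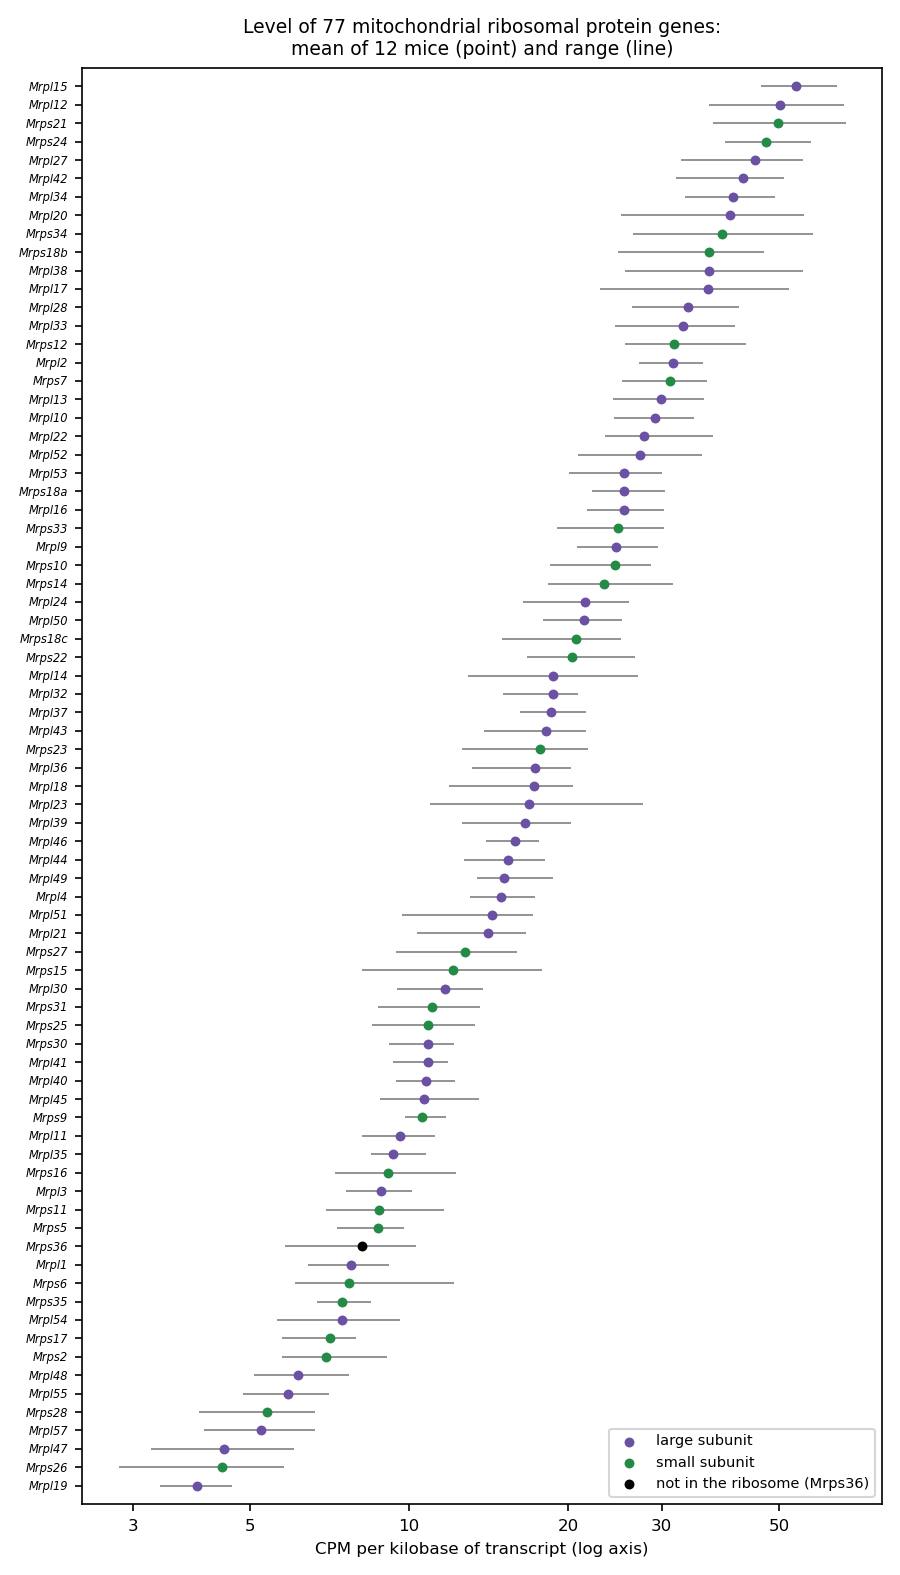
Level of each of the 77 genes in CPM per kilobase of transcript on a log axis, as the mean of 12 mice (point) and the range over mice (line), coloured by ribosomal subunit. Most genes lie between 5 and 50 CPM per kilobase, with both subunits mixed along the order and ranges of neighbours overlapping.

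The spread between mice of a group was small for these genes. The coefficient of variation within groups had a median of 10.3% over the 77 genes, from 3.91% for Mrpl32 to 22.3%, against 15% over all tested genes and 11.6% over the 6780 tested genes in the same range of levels. Libraries held 21999647 to 45273069 counts, and the 77 genes took 0.205% (mouse 265) to 0.256% (mouse 319) of them. The deposited values are estimated counts, in which reads that match several genes are shared out, and for 26 of the 77 genes they were not whole in at least 1 library. They were not whole in all 12 for 8 genes (Mrpl19, Mrpl23, Mrpl47, Mrpl48, Mrpl53, Mrps5, Mrps25 and Mrps34), whose values are less certain. A gene that overlaps in position and has at least 10% of the member's counts was found for 16, among them Mrpl14 (Tmem63b), Mrpl44 (Wdfy1), Mrps25 (Nr2c2), Mrpl47 (Ndufb5 and Actl6a) and Mrps34 (Nme3 and Mapk8ip3). Whether the counting used strand is not given in the sources used here, so reads of such pairs cannot be told apart with certainty.

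The targeted gene went against the labels. Nts had 0 counts in all 6 libraries labelled Nts+/+, and 46, 40 and 15 counts in the fed and 12, 4 and 18 in the fasted libraries labelled Nts-/-. A count of 0 allows up to 3 counts, 0.0833 to 0.136 CPM over the 6 libraries labelled Nts+/+, for counting error only. Which part of the gene the deletion removes was not analysed here, and directions between genotypes below are therefore those between labels. Hepatocyte markers such as Alb and Ttr dominated every library, with a summed level of 108761 to 139640 CPM. Kupffer cell markers (5 genes) summed to 398 to 467 CPM in fed Nts+/+ livers, 195 to 339 in fasted Nts+/+, 244 to 340 in fed Nts-/- and 254 to 388 in fasted Nts-/- livers. Sinusoidal endothelium markers (5 genes) summed to 123 to 178 and 142 to 156 CPM in fed and 106 to 114 and 103 to 124 CPM in fasted Nts+/+ and Nts-/- livers, and stellate cell markers (5 genes) to 222 to 239 and 181 to 261 CPM in fed and 182 to 207 and 188 to 202 CPM in fasted livers. For fasting averaged over genotypes 32.8% of all tested genes passed an adjusted *p* of 0.05 in edgeR. Of the markers, 4 of 6 hepatocyte, 1 of 5 Kupffer cell, 3 of 5 endothelium, 3 of 5 stellate cell and 1 of 4 erythroid genes passed. For cholangiocytes it was 0 of 4 and for lymphocytes 0 of 5, with summed levels of 2.84 to 6.31 and 3.94 to 6.89 CPM. The direction of single markers was not counted. No marker was at 0 in all libraries, and the part of cell composition in the results below was not tested. In whole liver, fewer cells of a type and less RNA per cell cannot be told apart.

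Fasting changed single mitochondrial ribosomal protein genes in both directions, none of them by a log2 value over 1. In Nts+/+ livers, 9 of the 77 passed an adjusted *p* of 0.05 in edgeR's quasi-likelihood test, against 18.1% of all tested genes. Of these, 3 rose (Mrpl17, Mrpl47 and Mrpl16) and 6 fell (Mrps15, Mrpl14, Mrps21, Mrps25, Mrpl22 and Mrpl44), where 8.91% of all tested genes rose and 9.19% fell. The median log2 fold change of the 77 was -0.002 against -0.003 over all tested genes, with 38 above and 39 below 0, and it ranged from -0.67 to 0.84. Before adjustment 20 had a *p* under 0.05, against 32.5% of tested genes. The count of 9 was 1 without mouse 254, 1 without mouse 282, 4 without mouse 257 and 4 without mouse 322. The share of all tested genes called fell in the same fits, to 9.46%, 8.70%, 11.4% and 15.7%. The split was 3 higher to 6 lower with TMM, 2 to 9 with upper-quartile scaling, which shifted the median of all tested genes by -0.041, and 6 to 4 with the trend with transcript length removed.

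In Nts-/- livers, 8 of the 77 passed the same test, against 16.8% of all tested genes. Here 7 rose (Mrpl17, Mrps26, Mrpl20, Mrpl12, Mrpl54, Mrps33 and Mrps10) and 1 fell (Mrps27), where 7.7% of all tested genes rose and 9.14% fell. The median log2 fold change was 0.10 against -0.01 over all tested genes, with 52 genes above and 25 below 0, and 19 had an unadjusted *p* under 0.05 (31.7% of tested genes). Without single mice this median ran from 0.043 to 0.206, and the 19 became 10 without mouse 277 and 31 without mouse 319. The share of all tested genes at this unadjusted threshold was not counted in these fits. The count of 8 was 18 without mouse 319, the fed Nts-/- mouse with the highest levels, and 3, 2, 3, 3 and 3 without mouse 277, 303, 284, 290 and 295. The share of all tested genes called was 18.7% without mouse 319 and 9.68%, 11.4%, 10.8%, 9.71% and 12.3% without the others. Only 4 passed when the 6 Nts-/- mice alone were fitted, where 14.9% of the genes tested in that fit were called.

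With the response averaged over both genotypes, 6 mice against 6, 21 of the 77 passed, against 32.8% of all tested genes. There were 14 that rose and 7 that fell, where 16% of all tested genes rose and 16.8% fell. The median log2 fold change was 0.08 against -0.01, and 32 had an unadjusted *p* under 0.05, against 42.6% of tested genes. The count was 12 without mouse 254 and 12 without mouse 282, where 26.9% and 26.5% of all tested genes were called. With upper-quartile scaling, which shifted the median of all tested genes by -0.036, the split was 10 higher to 10 lower. By subunit, 11 of 50 large-subunit genes passed (7 higher and 4 lower, median 0.09) and 10 of 26 small-subunit genes (7 higher and 3 lower, median 0.08). Of genes with a bacterial counterpart 9 of 45 passed (median 0.09), and of those without one 12 of 30 (median 0.03). No gene of the 77 changed by a log2 value over 1, a size that 8.83% of all tested genes passed in this comparison.

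**Figure D2:**
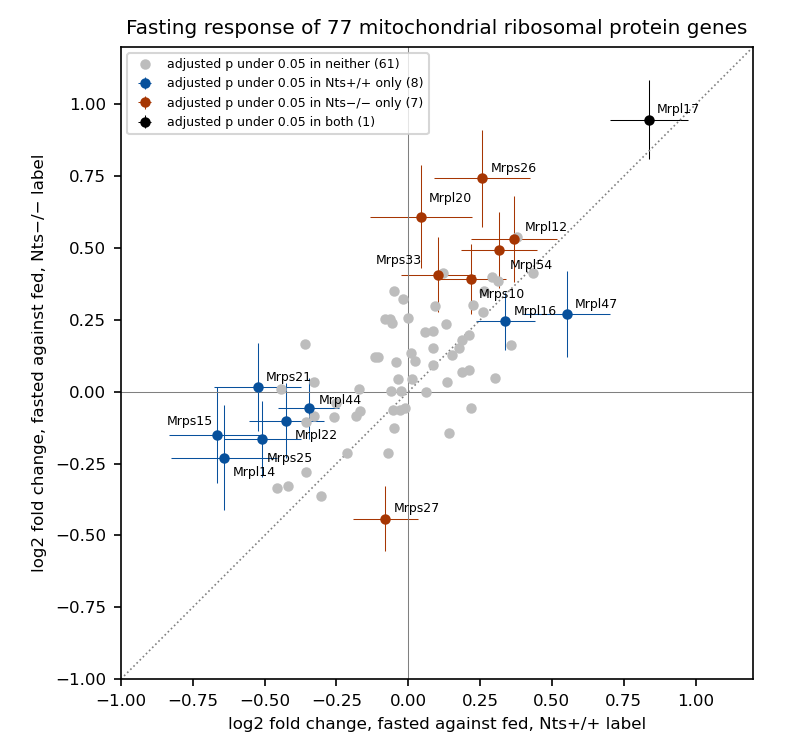
Log2 fold change of each of the 77 genes, fasted against fed, in livers labelled Nts+/+ (horizontal) and Nts-/- (vertical), with standard errors for the 16 genes that passed an adjusted p of 0.05 in either genotype. Mrpl17 stands at the upper right with 0.84 and 0.95, and the other named genes passed in 1 genotype only.

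The fasting comparisons in the 2 genotypes share no mice, and their values ran together across genes. The sign was the same for 57 of the 77 genes, with 35 above 0 in both and 22 below 0 in both (74.0%, against 74.4% of all tested genes). Pearson's r across the 77 genes was 0.71, and 0.70 across all tested genes, as a description over genes that share the scaling of each library. Mrpl17 alone passed in both genotypes, which is 11.1% of the 9 genes that passed in Nts+/+ and 12.5% of the 8 that passed in Nts-/- livers. Among all tested genes these shares were 59.2% and 63.7%. The 15 genes that passed in only 1 genotype are not shown to differ between genotypes, since the test of the difference itself passed for 0 of the 77.

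Large-subunit proteins with a bacterial counterpart held the largest change. Mrpl17 (ENSMUSG00000030879, chr7:105803206-105811099 on GRCm38), a protein at the rim of the tunnel through which the new peptide leaves, had 42.2, 41.3 and 50.4 CPM in fed Nts+/+ livers, 75.2, 83.7 and 80.3 in fasted Nts+/+ livers, 42.3, 42.8 and 58.5 in fed Nts-/- livers and 89.6, 93.1 and 94.0 in fasted Nts-/- livers. All 6 fasted livers were above all 6 fed livers, with no overlap, and in both fed groups 1 mouse (323 and 319) was above the others. Mrpl17 rose 1.79-fold in Nts+/+ (log2 fold change 0.84 ± 0.14, adjusted *p* = 0.00131, ± is the standard error of the fit) and 1.93-fold in Nts-/- livers (log2 fold change 0.95 ± 0.14, adjusted *p* = 0.000468). It was called in both genotypes without any one of the 12 mice, with a log2 fold change of 0.79 to 0.94 in Nts+/+ and 0.87 to 1.12 in Nts-/- livers.

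Mrpl12, the stalk protein named above, which has also been described to bind the mitochondrial RNA polymerase, had 99.97, 115 and 96.5 CPM in fed Nts+/+ livers, 144, 132 and 126 in fasted Nts+/+ livers, 89.6, 90.1 and 129 in fed Nts-/- livers and 162, 141 and 143 in fasted Nts-/- livers. Within each genotype the fasted mice were above the fed mice, but fed mouse 319 reached the level of fasted Nts+/+ livers. The rise passed in Nts-/- livers (log2 fold change 0.53 ± 0.15, adjusted *p* = 0.0259), and the value in Nts+/+ livers was 0.37 ± 0.15 (adjusted *p* = 0.103). Without 5 of the 12 mice taken singly the call in Nts-/- livers was lost. Mrpl16, a protein near the site where tRNAs enter, had 25.2, 25.2 and 26.9 CPM in fed Nts+/+ livers, 31.1, 34.7 and 31.8 in fasted Nts+/+ livers, 26.9, 26.4 and 29.0 in fed Nts-/- livers and 31.2, 31.2 and 35.2 in fasted Nts-/- livers. Its fasted and fed mice did not overlap in either genotype. It rose 1.26-fold in Nts+/+ livers (log2 fold change 0.34 ± 0.10, adjusted *p* = 0.0352), the value in Nts-/- livers was 0.25 ± 0.10 (adjusted *p* = 0.112), and averaged over both it passed (log2 fold change 0.29 ± 0.07, adjusted *p* = 0.00697). The call in Nts+/+ livers was lost without 6 of the 12 mice taken singly, and the call on average without 0.

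Mrpl47, the counterpart of a bacterial protein at the tunnel exit, had 11.1, 10.8 and 12.9 CPM in fed Nts+/+ livers, 16.4, 19.1 and 15.5 in fasted Nts+/+ livers, 12.5, 13.7 and 15.4 in fed Nts-/- livers and 20.1, 15.5 and 14.7 in fasted Nts-/- livers. The Nts+/+ groups did not overlap, and in Nts-/- livers fasted mice 290 and 295 lay in the range of the fed mice or next to it. It rose in Nts+/+ livers (log2 fold change 0.55 ± 0.15, adjusted *p* = 0.0224), with counts that were not whole in all 12 libraries. This call on Mrpl47 was lost without 3 of the 12 mice taken singly. Mrpl20, which binds ribosomal RNA early in assembly, had 32.6, 32.0 and 30.5 CPM in fed Nts+/+ livers, 42.3, 28.02 and 27.9 in fasted Nts+/+ livers, 19.1, 20.3 and 29.3 in fed Nts-/- livers and 34.2, 34.0 and 36.5 in fasted Nts-/- livers. Fed Nts-/- mice 277 and 303 were below all other mice, fed mouse 319 lay among them, and fasted mouse 265 was above all. The rise of 1.53-fold in Nts-/- livers passed (log2 fold change 0.61 ± 0.18, adjusted *p* = 0.032), while Nts+/+ livers gave 0.04 ± 0.18. This call on Mrpl20 was lost without 5 of the 12 mice taken singly.

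Other proteins of this class were lower in fasted livers. Mrpl14, which lies where the subunits meet and is held by the assembly factor Malsu1, had 39.7, 44.1 and 32.1 CPM in fed Nts+/+ livers, 23.8, 22.5 and 27.9 in fasted Nts+/+ livers, 29.5, 32.0 and 47.1 in fed Nts-/- livers and 29.8, 26.7 and 35.9 in fasted Nts-/- livers. Its Nts+/+ groups did not overlap, and its Nts-/- groups did, with fed mouse 319 the highest of all. Mrpl14 fell in Nts+/+ livers by 35.9% (log2 fold change -0.64 ± 0.18, adjusted *p* = 0.0279) and averaged over genotypes (-0.44 ± 0.13, adjusted *p* = 0.0194). These calls were lost without 4 and 3 of the 12 mice taken singly. Mrpl22, which lines the exit tunnel, fell in Nts+/+ livers from 24.5 ± 3.71 (SD, n = 3) to 18.3 ± 0.328 CPM (log2 fold change -0.42 ± 0.13, adjusted *p* = 0.0372), and was 19.4 ± 2.18 and 18.1 ± 1.02 CPM in fed and fasted Nts-/- livers. The call on Mrpl22 averaged over genotypes was lost without 11 of the 12 mice taken singly, and the call in Nts+/+ livers without 7.

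Of the 20 large-subunit proteins found in mitochondria only, 5 passed averaged over genotypes, against 32.8% of all tested genes. Mrpl54 had 16.7, 13.6 and 13.5 CPM in fed Nts+/+ livers, 17.2, 19.9 and 17.5 in fasted Nts+/+ livers, 14.6, 12.6 and 15.5 in fed Nts-/- livers and 20.1, 18.5 and 21.6 in fasted Nts-/- livers, so all fasted livers were above all fed livers. It rose 1.41-fold in Nts-/- livers (log2 fold change 0.49 ± 0.13, adjusted *p* = 0.0204) and gave 0.32 ± 0.13 in Nts+/+ livers (adjusted *p* = 0.112). Without 4 of the 12 mice taken singly the call in Nts-/- livers was lost, and the call on average without 0. Mrpl43, whose start lies 116 bases from that of Twnk, the mitochondrial DNA helicase, also had all fasted above all fed livers and rose on average (log2 fold change 0.35 ± 0.10, adjusted *p* = 0.0148). Twnk itself gave 0.12 (adjusted *p* = 0.363). Mrpl57 rose on average by 0.35 ± 0.12, a call lost without 9 of the 12 mice taken singly.

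Mrpl39, which resembles a threonyl-tRNA synthetase, and Mrpl38, a protein of the central protuberance, fell on average by 19.8% (log2 fold change -0.32 ± 0.09, adjusted *p* = 0.0162) and 24.0% (log2 fold change -0.40 ± 0.14, adjusted *p* = 0.0372). Mrpl39 had 38.1, 36.7 and 32.5 CPM in fed Nts+/+ livers and 24.0, 29.5 and 30.3 in fasted Nts+/+ livers and 33.7, 30.8 and 38.5 and 27.1, 26.5 and 31.2 CPM in fed and fasted Nts-/- livers, and the Nts+/+ groups did not overlap. Mrpl44, which has the fold of a double-stranded RNA nuclease and is mutated in an infantile heart disease, fell in Nts+/+ livers (log2 fold change -0.35 ± 0.11, adjusted *p* = 0.0375). Its values there were 23.8, 21.3 and 24.1 CPM when fed and 19.3, 16.9 and 18.2 CPM when fasted, without overlap, against -0.06 ± 0.11 in Nts-/- livers. The calls on Mrpl38 and Mrpl44 were each lost without 8 of the 12 mice taken singly, and the call on Mrpl39 without 1.

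**Figure D3:**
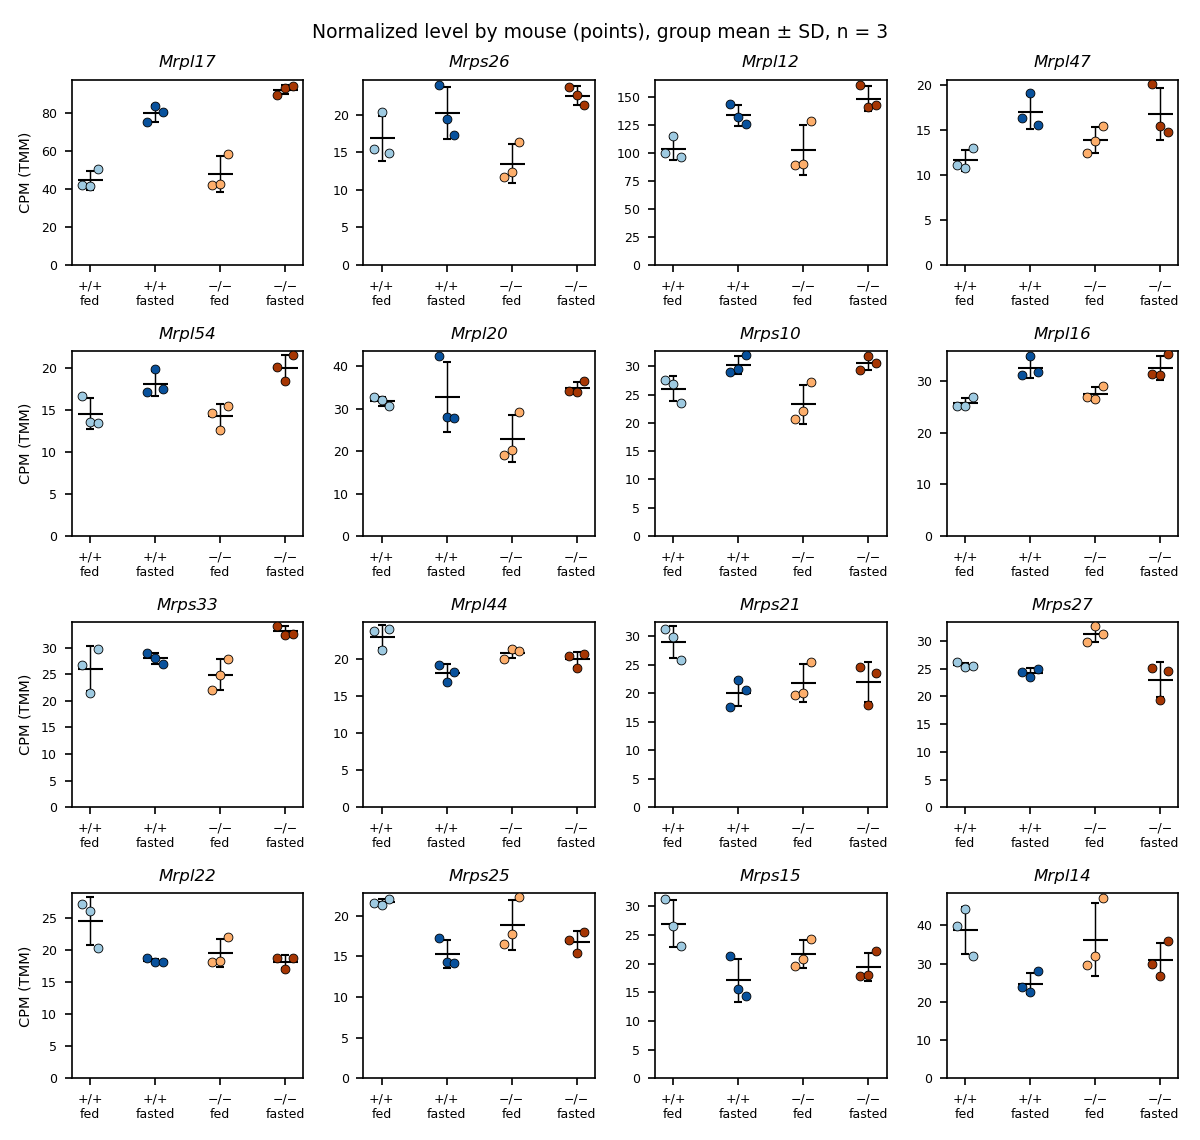
TMM-scaled CPM by mouse (points, left to right in the order of mouse numbers within each group) with group mean ± SD (n = 3) for the 16 genes that passed an adjusted p of 0.05 in either genotype, ordered by the mean log2 fold change. Mrpl17 at the upper left has no overlap between fed and fasted livers, while Mrpl14 at the lower right fell from 38.6 to 24.8 CPM in Nts+/+ livers.

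Small-subunit proteins were changed in both directions as well. Mrps26 (ENSMUSG00000037740, chr2:130563742-130568695), a mitochondria-only protein, had 15.4, 20.3 and 14.9 CPM in fed Nts+/+ livers, 24.0, 19.4 and 17.3 in fasted Nts+/+ livers, 11.7, 12.4 and 16.4 in fed Nts-/- livers and 23.8, 22.7 and 21.3 in fasted Nts-/- livers. The 3 fasted Nts-/- mice lay above the fed ones without overlap, and in Nts+/+ livers fed mouse 257 was above 2 of the 3 fasted mice. It rose 1.67-fold in Nts-/- livers (log2 fold change 0.74 ± 0.17, adjusted *p* = 0.00932), a call kept without any one of the 12 mice, and gave 0.26 ± 0.17 in Nts+/+ livers (adjusted *p* = 0.315).

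Mrps10, the counterpart of a bacterial head protein, had 27.6, 26.9 and 23.5 CPM in fed Nts+/+ livers, 29.1, 29.6 and 32.1 in fasted Nts+/+ livers, 20.7, 22.0 and 27.2 in fed Nts-/- livers and 29.3, 31.8 and 30.6 in fasted Nts-/- livers. All fasted livers were above all fed livers, with fed mice 254 and 319 the nearest to the fasted ones. It rose in Nts-/- livers (log2 fold change 0.39 ± 0.12, adjusted *p* = 0.0401) and on average (0.30 ± 0.09, adjusted *p* = 0.0143). The first of these calls was lost without 7 of the 12 mice taken singly, and the second without 0. Mrps33 had 22.0, 24.8 and 27.9 CPM in fed Nts-/- livers and 34.1, 32.4 and 32.5 in fasted Nts-/- livers and rose there (log2 fold change 0.41 ± 0.13, adjusted *p* = 0.045), a call that was lost without 9 of the 12 mice taken singly, and gave 0.10 ± 0.13 in Nts+/+ livers.

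Mrps18b, 1 of several proteins related to bacterial S18 but counted here as mitochondria-only since Mrps18c is the direct counterpart, rose on average from 36.1 ± 5.74 to 48.9 ± 0.653 CPM in Nts+/+ and from 35.2 ± 7.38 to 46.9 ± 5.48 CPM in Nts-/- livers (SD, n = 3, log2 fold change 0.42 ± 0.11, adjusted *p* = 0.0106). Mrps34, whose loss in humans causes a Leigh-like disease of the brain, rose on average by 37.5% (log2 fold change 0.46 ± 0.13, adjusted *p* = 0.0124), but its reads were shared with other genes in all 12 libraries. Mrps2 and Mrps23 rose on average by 0.26 ± 0.08 and 0.31 ± 0.10 (adjusted *p* = 0.0283 and 0.034). Each of these last calls was lost without 6 of the 12 mice taken singly.

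Mrps27 (ENSMUSG00000041632, chr13:99344786-99415561), a protein with pentatricopeptide repeats, which bind RNA, was the only gene of the 77 whose fall in Nts-/- livers passed. It had 26.2, 25.4 and 25.5 CPM in fed Nts+/+ livers, 24.4, 23.5 and 25.05 in fasted Nts+/+ livers, 29.9, 32.7 and 31.2 in fed Nts-/- livers and 25.1, 19.3 and 24.6 in fasted Nts-/- livers. Fed Nts-/- mice were above every other mouse, and the 6 fasted mice were below the 6 fed mice. The fall of 26.4% in Nts-/- livers passed (log2 fold change -0.44 ± 0.11, adjusted *p* = 0.0173), whereas Nts+/+ livers gave -0.08 ± 0.11, and the difference between these responses was -0.36 ± 0.16 (adjusted *p* = 0.897). Without 2 of the 12 mice taken singly the call in Nts-/- livers was lost.

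Mrps15, Mrps21 and Mrps25 were lower in fasted Nts+/+ livers. Mrps15 had 31.3, 26.6 and 23.0 CPM in fed Nts+/+ livers and 21.2, 15.6 and 14.3 in fasted Nts+/+ livers and fell by 37.0% (log2 fold change -0.67 ± 0.17, adjusted *p* = 0.0152). Mrps25 had 21.6, 21.4 and 22.0 CPM in fed Nts+/+ livers and 17.2, 14.3 and 14.2 in fasted Nts+/+ livers and fell by 29.7% (log2 fold change -0.51 ± 0.13, adjusted *p* = 0.0195). In both genes the 3 fasted mice were below the 3 fed mice, and in Nts-/- livers the groups overlapped, with -0.15 ± 0.17 and -0.16 ± 0.13. Each call in Nts+/+ livers was lost without 3 of the 12 mice taken singly. Mrps21, the counterpart of a small bacterial protein that binds near the start of the message, had 31.2, 29.9 and 25.9 CPM in fed Nts+/+ livers, 17.5, 22.3 and 20.6 in fasted Nts+/+ livers, 19.8, 20.01 and 25.6 in fed Nts-/- livers and 24.5, 17.9 and 23.5 in fasted Nts-/- livers. Fed Nts+/+ mice were above every other mouse, and it fell in Nts+/+ livers by 30.5% (log2 fold change -0.52 ± 0.15, adjusted *p* = 0.03) with 0.02 ± 0.15 in Nts-/- livers. This call on Mrps21 was lost without 5 of the 12 mice taken singly.

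Groups of mice were also compared by overlap alone. In Nts+/+ livers the 3 fasted mice were above the 3 fed mice for 12 of the 77 genes and below for 12, against 18.1% and 17.9% of all tested genes. In Nts-/- livers the numbers were 15 above and 1 below (Mrps27), against 17.1% and 18.1%. Over both genotypes all 6 fasted mice were above all 6 fed mice for 5 genes (Mrpl16, Mrpl17, Mrpl43, Mrpl54 and Mrps10) and below for 1 (Mrps27), against 8.05% and 7.83% of tested genes.

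Genes known from human mitochondrial disease or used in other studies of mitochondrial translation were described whatever their values. Mrps16, Mrps22 and Mrpl3, all mutated in deficiencies of several OXPHOS complexes, gave -0.23 ± 0.11, -0.14 ± 0.11 and -0.01 ± 0.09 for fasting averaged over genotypes, with adjusted *p* of 0.113, 0.328 and 0.933. Mrps5, studied for its link to life span in mice, gave 0.07 ± 0.08, and Mrps12, part of the decoding site, -0.17 ± 0.12. Mrps36 gave -0.09 ± 0.14, Mrpl58 0.04 ± 0.08, and the highest and lowest genes per kilobase, Mrpl15 and Mrpl19, 0.20 ± 0.09 and -0.0005 ± 0.09. None of these passed. The sign of Mrpl3 and Mrpl19 changed with the scaling or the tool, so no direction is given for them.

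The score of a mouse, the mean over the 77 genes of log2 CPM centred on each gene's mean, spread more in livers labelled Nts-/- than in those labelled Nts+/+. In Nts+/+ livers the scores were close together, with 0.023, -0.016 and -0.024 in fed and -0.034, 0.018 and -0.013 in fasted mice. In fed Nts-/- livers they were -0.182 (mouse 277), -0.134 (303) and 0.161 (319), and in fasted Nts-/- livers 0.113 (284), -0.033 (290) and 0.122 (295). Mouse 319 had 65 of the 77 genes above their mean, the other fed Nts-/- mice had 13 and 17, and the fed and fasted Nts-/- groups overlapped. As mean ± SD (n = 3) the scores were -0.006 ± 0.025, -0.010 ± 0.026, -0.052 ± 0.186 and 0.067 ± 0.087 in the order fed and fasted Nts+/+, fed and fasted Nts-/-.

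Nuclear OXPHOS subunit genes and cytosolic ribosomal protein genes had a like arrangement of mice in the Nts-/- groups. The OXPHOS score was -0.329, -0.189 and 0.106 in fed and 0.214, 0.033 and 0.246 in fasted Nts-/- mice. For fasting in Nts-/- livers the median log2 fold change was 0.31 over 78 OXPHOS genes (75 above 0), 0.26 over 90 cytosolic ribosomal protein genes (86 above 0) and 0.10 over the 77 mitochondrial ribosomal protein genes (52 above 0). In Nts+/+ livers the medians were 0.02, 0.002 and -0.002. The genes that passed on average were 14 of 78, 12 of 90 and 21 of 77 in this order (17.9%, 13.3% and 27.3%, against 32.8% of all tested genes). Among the OXPHOS genes, Cox6b2 (2.27), Cox7a1 (-1.37) and Atp5g3 (0.56) had the smallest *p*, and among the cytosolic ribosomal protein genes Rps18 (0.48), Fau (0.47) and Rps14 (0.37). The share of counts on genes of the mitochondrial DNA was 2.24% to 5.18% in fed and 3.33% to 4.35% in fasted Nts+/+ livers, and 2.70% to 3.98% in fed and 3.50% to 5.81% in fasted Nts-/- livers. The part of such whole-library differences in the Nts-/- values was not tested.

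**Figure D4:**
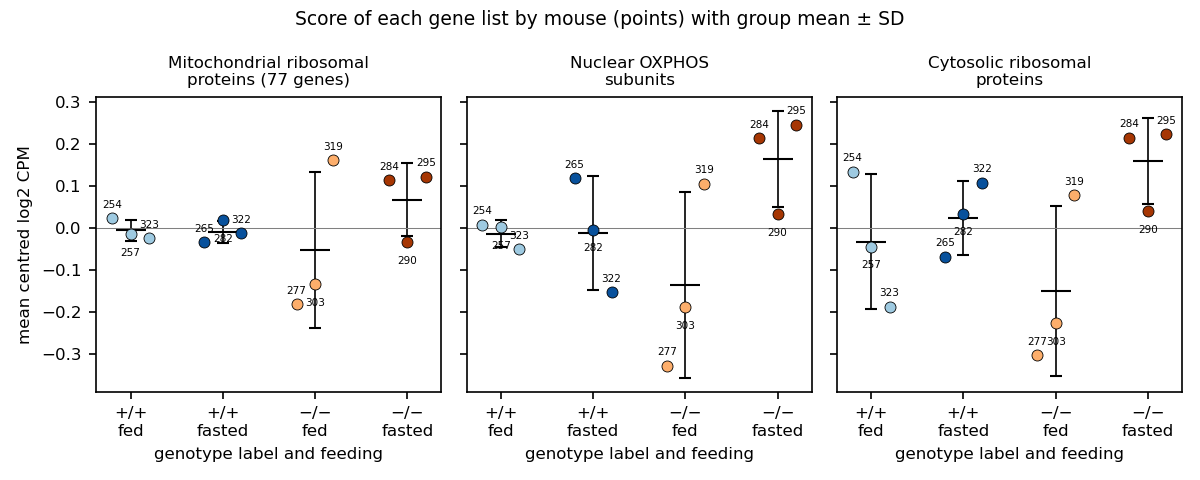
Score of each mouse (point, with mouse number) for mitochondrial ribosomal proteins, nuclear OXPHOS subunits and cytosolic ribosomal proteins, as the mean of log2 CPM centred on each gene's mean over 12 mice, with group mean ± SD (n = 3). In all 3 panels fed Nts-/- mouse 319 lies above mice 277 and 303, and the mitochondrial ribosomal protein scores of the Nts+/+ mice lie between -0.034 and 0.023.

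The genotype comparison sets livers labelled Nts-/- against those labelled Nts+/+, fed and fasted, and every sign in it would turn if the labels were exchanged. In fed livers 0 of the 77 genes passed in edgeR, as did 0% of all tested genes (0% higher and 0% lower), and DESeq2 called 0 of the 77. At an unadjusted *p* under 0.05 there were 6 of 77 in edgeR, against 6.34% of all tested genes, and 6 in DESeq2. This count was 19 without mouse 319, 0 without mouse 303, 1 without mouse 277, 1 without mouse 254 and 3 without mouse 257. The share of all tested genes at this unadjusted threshold was not counted in these fits. The median log2 difference, Nts-/- against Nts+/+ label, was -0.04 against 0.01 over all tested genes, with 32 genes above and 45 below 0. Without mouse 319 this median was -0.15. The 3 fed Nts-/- mice were above the 3 fed Nts+/+ mice for 2 genes and below for 5, against 4.81% and 5.84% of tested genes.

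The smallest *p* in fed livers belonged to Mrps21, given above (log2 difference -0.41 ± 0.15, unadjusted *p* = 0.017), and to Mrpl32. Mrpl32, whose maturation by the m-AAA protease is needed for ribosome assembly, had 17.9, 16.5 and 17.4 CPM in fed Nts+/+ livers, 17.0, 17.0 and 17.2 in fasted Nts+/+ livers, 13.3, 13.9 and 15.3 in fed Nts-/- livers and 18.5, 17.2 and 17.5 in fasted Nts-/- livers. Fed Nts-/- mice were below all other mice, and the remaining 9 mice were within a narrow range. Its difference was -0.29 ± 0.11, unadjusted *p* = 0.0174, with an adjusted *p* of 0.734. Mrpl20, Mrpl22 and Mrps27 followed with -0.47 ± 0.18, -0.34 ± 0.13 and 0.28 ± 0.11, and the lowest adjusted *p* of the 77 was 0.734.

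In fasted livers 0 of the 77 passed in edgeR and 0 in DESeq2, with 0 at an unadjusted *p* under 0.05 in either. Without single mice up to 3 of the 77 reached it, and the share of all tested genes was not counted in those fits. Of all tested genes 0% passed (0% higher and 0% lower), and 4.96% had an unadjusted *p* under 0.05. The median log2 difference was 0.10 against -0.01 over all tested genes, with 56 genes above and 21 below 0, and the values ran from -0.15 to 0.32. It was 0.04 to 0.13 when each mouse was left out in turn. Over all tested genes, the log2 difference fell with log2 transcript length (Pearson's r = -0.19), and the part of length in the median was not tested. The 3 fasted Nts-/- mice were above the 3 fasted Nts+/+ mice for 8 genes (Mrpl17, Mrpl32, Mrpl36, Mrpl46, Mrpl50, Mrps7, Mrps14 and Mrps33) and below for 0, against 5.29% and 6.88% of tested genes.

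Mrpl50 had the smallest *p* in fasted livers, with 39.6, 41.2 and 41.0 CPM in fasted Nts+/+ livers and 45.5, 43.8 and 54.0 in fasted Nts-/- livers and log2 difference 0.24 ± 0.12, unadjusted *p* = 0.0691. Mrpl28, the counterpart of bacterial L28, had 30.4, 28.05 and 31.4 CPM in fasted Nts+/+ livers and 39.1, 30.4 and 39.5 in fasted Nts-/- livers, and Mrps16 had 20.5, 19.5 and 18.5 CPM in fasted Nts+/+ livers and 22.8, 20.3 and 27.9 in fasted Nts-/- livers. For Mrpl50 the groups did not overlap, and for Mrpl28 and Mrps16 fasted Nts-/- mouse 290 lay among the Nts+/+ mice. Their differences were 0.28 ± 0.15 and 0.29 ± 0.15. Mrps33 and Mrpl27, which sits near the peptidyl transferase centre, gave 0.24 ± 0.13 and 0.28 ± 0.15, and the lowest adjusted *p* of the 77 was 0.917. The OXPHOS genes had a median of 0.15 in this comparison (74 of 78 above 0), with 0 called and 8 at an unadjusted *p* under 0.05.

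**Figure D5:**
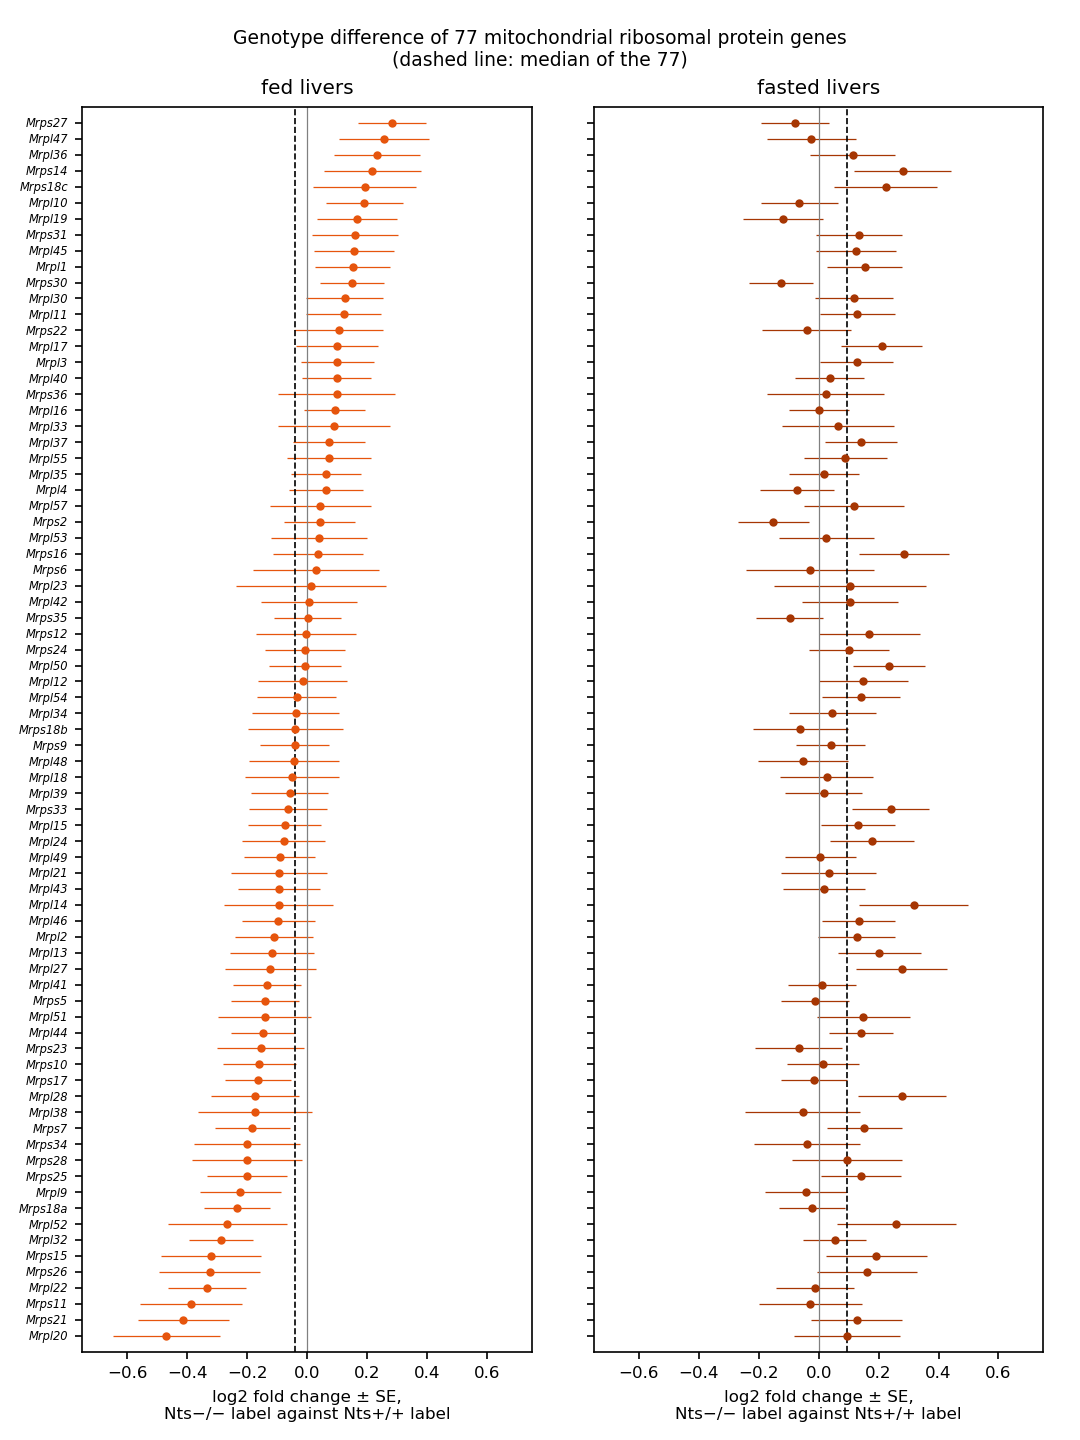
Log2 difference ± standard error of each of the 77 genes, Nts-/- against Nts+/+ label, in fed livers (left, which sets the order) and fasted livers (right), with the median of the 77 as a dashed line. The medians are -0.04 and 0.10, the values stay between -0.47 and 0.32, and none passed an adjusted p of 0.05.

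The difference between the fasting responses of the genotypes passed for 0 of the 77 in edgeR and 0 in DESeq2, and for 0% of all tested genes (0% higher and 0% lower). At an unadjusted *p* under 0.05 there were 6 of the 77 in edgeR (4.8% of tested genes) and 3 in DESeq2. This count was 20 without mouse 319, 0 without mouse 254 or 303 and 1 without mouse 282, 322, 277, 284 or 295. It was 2 with the trend with transcript length removed. The share of all tested genes at this unadjusted threshold was not counted in these fits. The median was 0.11 against -0.02 over all tested genes, and 0.24 without mouse 319. Over all tested genes, this difference fell with log2 transcript length (Pearson's r = -0.21), and the 77 genes have short transcripts. The part of length in this median was not tested. Mrps21 (log2 difference 0.54 ± 0.22, unadjusted *p* = 0.0255), Mrpl32 (0.34 ± 0.15), Mrps27 (-0.36 ± 0.16), Mrpl20 (0.57 ± 0.25) and Mrpl28 (0.45 ± 0.21) had the smallest *p*, with an adjusted *p* of 0.897 each. The fed genotype difference enters this comparison with the opposite sign, so the same mice appear in both.

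Other parts of the mitochondrial translation machinery were followed through lists for assembly factors, translation factors, tRNA synthetases and RNA handling, for fasting averaged over genotypes, in which 32.8% of all tested genes passed. Of 5 ribosomal proteins without an Mrp symbol (Dap3, Chchd1, Ptcd3, Aurkaip1 and Gadd45gip1), Chchd1 fell (log2 fold change -0.28 ± 0.09, adjusted *p* = 0.0308) and 4 did not pass. The call on Chchd1 was lost without 7 of the 12 mice taken singly. Of 25 assembly factors 5 rose and 2 fell (28% called, median 0.07). Ddx28, an RNA helicase of large subunit assembly, had 13.0, 13.6 and 16.4 CPM in fed Nts+/+ livers, 18.1, 19.7 and 21.9 in fasted Nts+/+ livers, 12.9, 11.5 and 15.1 in fed Nts-/- livers and 21.5, 22.0 and 20.7 in fasted Nts-/- livers. All fasted livers were above all fed livers, and it rose 1.502-fold (log2 fold change 0.59 ± 0.10, adjusted *p* = 0.000443). Rcc1l (in the table as Wbscr16) rose as well (log2 fold change 0.59 ± 0.12, adjusted *p* = 0.00151), and Nsun4, a methyltransferase of the small ribosomal RNA, fell (log2 fold change -0.53 ± 0.11, adjusted *p* = 0.00186).

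Of 13 translation factors 4 rose and 0 fell (30.8% called, median -0.03). Oxa1l, which inserts new proteins into the inner membrane, had 42.3, 42.5 and 39.5 CPM in fed Nts+/+ livers, 59.6, 62.7 and 58.3 in fasted Nts+/+ livers, 47.2, 44.3 and 48.8 in fed Nts-/- livers and 60.1, 57.3 and 57.6 in fasted Nts-/- livers, without overlap between fed and fasted livers. It rose 1.35-fold (log2 fold change 0.43 ± 0.07, adjusted *p* = 0.000379). The initiation factor Mtif3, the elongation factor Gfm1 and the GTPase Guf1 rose by 0.47 ± 0.09, 0.38 ± 0.08 and 0.27 ± 0.10 (adjusted *p* = 0.00199, 0.00388 and 0.042). The call on Guf1 was lost without 10 of the 12 mice taken singly.

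Of 20 tRNA synthetase and amidotransferase genes 4 rose and 6 fell (50% called, median -0.10). Tars2 fell by 35.6% and Iars2 rose by 35.0% (adjusted *p* = 0.000237 and 0.00086). Of 18 genes of mitochondrial transcription and RNA handling 8 rose and 1 fell (50% called, median 0.19). Hsd17b10, a subunit of mitochondrial RNase P that is also an enzyme of branched-chain amino acid breakdown, had 94.5, 77.1 and 90.8 CPM in fed Nts+/+ livers, 335, 293 and 177 in fasted Nts+/+ livers, 73.6, 89.4 and 84.2 in fed Nts-/- livers and 264, 322 and 357 in fasted Nts-/- livers. The fasted livers were above the fed livers in both genotypes, and it rose 3.42-fold (log2 fold change 1.78 ± 0.15, adjusted *p* = 2.31e-06). Tfb2m, which starts transcription of mitochondrial DNA, and Grsf1, of the RNA granules, rose by 0.46 ± 0.08 and 0.43 ± 0.08.

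Of the 13 messages that the mitochondrial ribosome reads, 3 rose (23.1%), and 0 of the 2 mitochondrial ribosomal RNAs passed (median -0.38). mt-Nd5, mt-Nd6 and mt-Nd2, subunits of complex I, rose by 0.89 ± 0.18, 0.94 ± 0.24 and 0.64 ± 0.20 (adjusted *p* = 0.00251, 0.0119 and 0.0242), and the call on mt-Nd2 was lost without 4 of the 12 mice taken singly. In these lists 0 genes passed in edgeR for genotype in fed or fasted livers or for the difference between fasting responses, with at most 1 gene of a list at an unadjusted *p* under 0.05.

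Factors known to act on mitochondrial biogenesis were read by their values. Ppargc1a, which encodes PGC1α, the coactivator that raises mitochondrial gene expression in fasting, had 7.35, 6.18 and 5.54 CPM in fed Nts+/+ livers, 10.8, 10.3 and 11.0 in fasted Nts+/+ livers, 7.80, 6.84 and 8.05 in fed Nts-/- livers and 6.78, 24.97 and 13.5 in fasted Nts-/- livers. Fasted Nts+/+ mice were above the fed ones, and the fasted Nts-/- mice spread from just below the fed ones (mouse 284) to the highest of all 12 (mouse 290). It rose on average (log2 fold change 0.87 ± 0.24, adjusted *p* = 0.0155). Esrra, the estrogen-related receptor that works with it, Myc and Yy1 rose by 0.53 ± 0.15, 1.03 ± 0.26 and 0.22 ± 0.07 (adjusted *p* = 0.0144, 0.00848 and 0.0231). Nrf1, with 0.08 ± 0.11, and Gabpa, the DNA-binding part of GA-binding protein, with 0.01 ± 0.09, did not pass, and the sign of Gabpa changed with upper-quartile scaling, by about the shift of all tested genes.

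Genes were also grouped by cores in the 300-base windows, which reach 50 bases past the start and beyond the letters printed. By these windows Mrps18b also counts under ETS and Mrps27 under YY1. The 25 genes with an ETS core had a median log2 fold change for fasting of 0.15, with 9 called, and the 43 without one 0.03, with 9 called. For the NRF1 core these were 0.16 with 4 of 8 called, and 0.03 with 14 of 60 called. For the YY1 core they were -0.08 with 1 of 8 called, and 0.07 with 17 of 60. Of all tested genes 32.8% were called for fasting averaged over genotypes. The groups by core were not tested against each other. The 23 tested genes with a start opposite that of a member had the sign of that member's fasting value in 10 cases, with the pair of Mrpl46 and Mrps11 counted from either side.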

How the data were processed

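RNA was extracted from livers of 12 mice, 3 in each of 4 groups set by the genotype and feeding labels. Per the labels, the authors trimmed reads with Trimmomatic and made estimated counts (expected counts) per gene with RSEM on GRCm38, in which reads that match several genes are shared out, and deposited them without normalization. Versions and the use of strand are not given in the sources used here.

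The deposited values were rounded to whole counts, and totals ran from 21999647 to 45273069 per library. Genes that passed filterByExpr (13812) were scaled by TMM and fitted in 1 model of all 12 mice with edgeR 4.0.16 (R 4.3.3), using the robust quasi-likelihood test and Benjamini-Hochberg adjustment over all tested genes at 0.05. The common biological coefficient of variation was 0.202. Log2 CPM used a prior count of 2. These steps were tested on simulated data. The mice are described as littermates, but which mice shared a litter is not given in the sources used here. The fit therefore ignores litter, and *p*-values measure the spread between mice.

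The members, the gene lists and the tests were chosen with earlier results of these data known. Named members are those past the threshold in a fasting comparison, the 5 with the smallest *p* in each genotype comparison and in the difference between responses, the 3 highest and 3 lowest by level per kilobase, and genes of known special role. From each other list, genes past the threshold were named where 5 or fewer, otherwise the 3 with the smallest *p*. The result for 1 gene that this rule names is not reported here. Transcript lengths were medians over GENCODE vM39 coding transcripts, and promoters came from RefSeq. Alternatives were RLE and upper-quartile scaling, no count filter, only the mice compared, no genes of mitochondrial DNA, a length trend removed (lowess span 0.3), a threshold of 0.10, another member list, whole-count members, DESeq2 1.42.0 and leaving out each mouse.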

Additional observations from a re-analysis of the deposited data

Results flagged for a closer look

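Reads were also assigned to pseudogene symbols that the comparisons left out. Mrpl23-ps1 had a summed count of 2563 over the 12 libraries (124 to 433 per library), Mrps36-ps2 had 11 (0 to 2) and Mrpl48-ps had 6 (0 to 3). All 3 were listed because a signal appeared in data outside the comparisons. Mrpl23 and Mrpl48 were among the genes with counts that were not whole in all 12 libraries. The part of these pseudogenes in the counts of Mrpl23, Mrps36 and Mrpl48 was not tested.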

How the results depend on the processing

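The counts of genes called for fasting moved when single mice were left out, as did the shares of all tested genes. Leaving out each of the 12 mice in turn gave 1 to 13 calls in Nts+/+ livers (9 with all mice), 2 to 18 in Nts-/- livers (8) and 12 to 24 averaged over genotypes (21), and medians of -0.148 to 0.034 for genotype in fed livers and 0.053 to 0.241 for the difference between fasting responses. A threshold of 0.10 gave 14 calls in Nts+/+ and 13 in Nts-/- livers. The share of all tested genes at that threshold was not counted. In Nts-/- livers fitting only the mice compared gave 4, where 14.9% of the genes tested in that fit were called. The members with whole counts, an alternative chosen after seeing the data, gave 5 of 51 in Nts-/- livers (9.80%, against 10.4% of the 77). Upper-quartile scaling, which lowered the fasting values of all tested genes by a median of 0.03 to 0.04, split the calls 2 higher to 9 lower in Nts+/+ livers and 10 to 10 on average, and removal of the length trend gave 6 to 4 in Nts+/+ livers. Of genes near 0 for fasting on average, Mrpl3 changed sign with the length trend removed (0.0085) and with DESeq2 (0.0012), Mrpl19 with RLE (0.0092), no count filter (0.011), the length trend removed (0.017) and DESeq2 (0.013), and Gabpa with upper-quartile scaling (-0.021). Without single mice Mrps36 ran from -0.149 to 0.0034, Mrpl3 from -0.047 to 0.029, Mrpl19 from -0.031 to 0.063 and Gabpa from -0.014 to 0.076. The cause of these changes was not tested. Over 93 results for named genes and the alternatives other than leaving out a mouse, 539 of 582 values kept direction and side of the threshold, 33 lost and 3 gained a call, and 7 changed sign. No paired analysis was possible because the labels used here do not tie mice of different groups to a litter or to a shared replicate number. With 3 mice in a group, small differences were not detectable. The median standard error for a genotype difference was 0.14 over the 77 genes, fed or fasted, and 0.19 over all tested genes.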
